A study of Homo sapiens with 47 samples.

Results

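The transcripts of 10 genes of the NRF2 antioxidant and glutathione response were followed among the 57507 genes of a table of FPKM (fragments scaled by transcript length and library depth) in human cells with a mutated *NUP58*, a gene for a protein of the nuclear pore channel. The genes were NFE2L2, KEAP1, GCLC, GCLM, GSR, TXNRD1, SRXN1, NQO1, HMOX1 and ME1, and each had 1 row in the table. GCLC was chosen on its higher level in the mutant HAP1 clones of these data, so its HAP1 values are given as a description with no test. The other 9 genes were added as known partners of the same pathway.

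HAP1 is a near-haploid, adherent line derived from a chronic myeloid leukemia, and HCT116 is a colorectal carcinoma line. In HAP1, wild-type cells (WT), cells given Cas9 without a guide RNA (empty vector, EV) and 6 *NUP58* mutated clones (C1 to C6) were sequenced in 4 replicates each, 32 libraries in all. The HCT116 libraries comprised 4 of 1 *NUP58* mutated clone and 11 of unedited controls (WT, EV1 and EV2), 15 in all. Each clone descended from a single cell, sorted in HAP1 and obtained by dilution after puromycin selection in HCT116, so other traits of a clone cannot be told apart from its mutation. For 2 HCT116 controls numbered 4, one label field named WT and another the vector, and both were used only as unedited controls.

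NRF2, encoded by NFE2L2, is a transcription factor that is held at low levels by KEAP1, an adaptor that hands it to a ubiquitin ligase. When reactive cysteines of KEAP1 are modified, NRF2 accumulates, enters the nucleus, pairs with small MAF proteins and binds antioxidant response elements near its targets. The targets make glutathione (GCLC, GCLM), recycle it (GSR), run the thioredoxin and peroxiredoxin systems (TXNRD1, SRXN1), reduce quinones (NQO1), degrade heme (HMOX1) and supply NADPH (ME1). NRF2 is regulated mainly through the stability of its protein, which RNA levels do not show.

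The core of the antioxidant response element, TGACNNNGC, was searched on both strands of the RefSeq promoter windows (GRCh38.p14, 250 bases before to 50 after each start site), to show which members carry it next to their start. It occurred in 13.3% of 35116 windows of all genes. Of the 10 members, 8 had a window and 4 of these held the core, with 5 of the 11 windows of the members matching. The first TXNRD1 window and the ME1 window each held another match that reached or lay past the start site and is not printed. The matches wholly before the start site are shown with 10 bases on each side, 5′ to 3′ on the strand of the gene. Capitals mark the core (where it reads GCNNNGTCA, the core lies on the opposite strand).
GCLM, chr1:93909446-93909474, minus strand: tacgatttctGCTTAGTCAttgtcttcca
KEAP1, chr19:10502784-10502812, minus strand: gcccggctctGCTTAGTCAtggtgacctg
KEAP1, chr19:10502807-10502835, minus strand: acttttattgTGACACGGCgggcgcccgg
TXNRD1, first start, chr12:104215670-104215698, plus strand: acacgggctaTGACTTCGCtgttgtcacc
TXNRD1, second start, chr12:104286920-104286948, plus strand: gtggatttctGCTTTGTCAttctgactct
ME1, chr6:83431170-83431198, minus strand: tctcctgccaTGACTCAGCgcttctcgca
One of the KEAP1 matches and the GCLM match shared the same 9 letters, TGACTAAGC. The windows of GCLC, SRXN1, NQO1 and NFE2L2 did not hold these letters, which says nothing of elements farther away. GSR and HMOX1 had no window in the table.

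*NUP58*, the targeted gene, was lower than in every WT library in all 24 HAP1 clone libraries, at 7.98 to 28.0 FPKM against 34.3 to 50.4. In HCT116 the library labelled clone replicate 3 held 44.7 FPKM and the library labelled EV2 replicate 3 held 23.95, whereas the other 3 clone libraries held 23.3 to 25.3, so the labels of these libraries are in doubt. HCT116 results are therefore given for all libraries and without those numbered 3. EPCAM, an epithelial surface marker, reached 102.3 to 272.1 FPKM in HCT116 and at most 16.7 in HAP1, and the 7 epithelial markers examined summed to 1156 to 2011 and to 18.2 to 62.5, respectively, although VIL1 and LGALS4 were near 0 in HCT116 as well and KRT20 was at most 2.63. Of 6 blood cell markers, PTPRC, GATA1 and SPI1 were at 0 in every HAP1 library. CD34 reached at most 0.149 FPKM and CD33 at most 0.798. ITGA2B, the only marker with a mean of at least 1, was at 2.52 to 14.25 FPKM in HAP1. The FPKM of a library summed to 604053 to 654081 in HAP1 and 619798 to 721992 in HCT116, and the relative depth read from the lowest values ranged from 0.749 to 1.156 and from 0.76 to 0.981 of the first WT library.

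The 6 HAP1 clones were first compared with WT to ask how the response stood in cells with a defective NUP58. The study sequenced their RNA at passage 1, the earliest collected, when all 6 still grew more slowly than WT. NQO1 and HMOX1 were lower in the clones, at 45.7% and 57.5% of their WT means, while the transcript of NRF2 itself was higher at 124.8% and GCLC stood at 131.2%. GSR was lower at 86.9%. In a limma fit to log2(FPKM + 1) over all genes, with genes called at an adjusted p under 0.05, 1 of the 9 members tested rose and 3 fell in the mean of the clones, where 3.17% of 13180 genes rose and 3.43% fell. The median log2 difference of the 9 members was −0.17, against −0.02 over all genes, and 7 of the 9 lay below 0. In EV against the same WT libraries 7 of the 9 also lay below 0, with a median of −0.06, so that this tally is not particular to the clones. This fit did not use the replicate numbers. With the number added as a block, the same 4 members were called. The adjusted p was then 0.0118 for NFE2L2, 0.0187 for GSR, 0.000311 for NQO1 and 7.97e-05 for HMOX1. The error of the contrast comes, in both fits, from the spread of libraries within lines and not from the spread between clones.

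**Figure D1:**
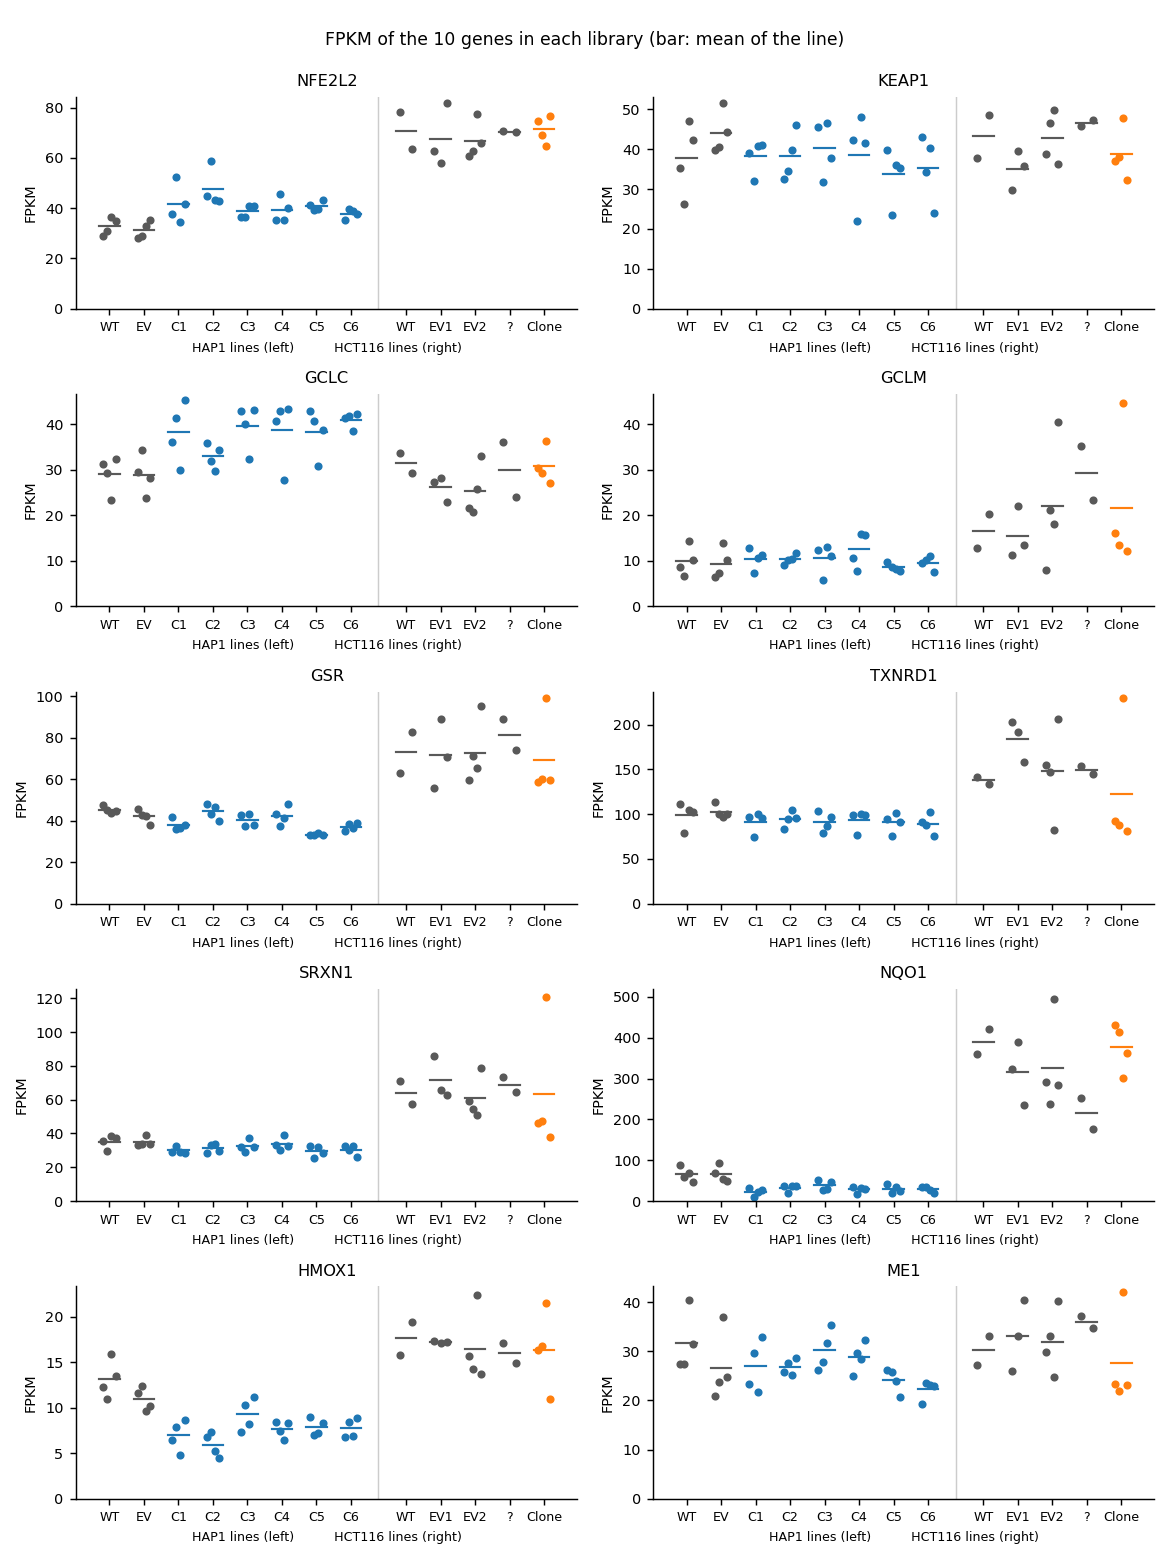
FPKM of the 10 genes (vertical axes, linear, from 0) in each library of the HAP1 lines (left of each panel: WT and EV in gray, clones C1 to C6 in blue) and of the HCT116 lines (right: controls in gray, the clone in orange; "?" marks the 2 controls with conflicting labels), where each point is a library and the bar is the mean of the line. NQO1 and HMOX1 lie lower in the 6 HAP1 clones than in WT, and 1 library of the HCT116 clone lies far above the other 3 for GCLM, GSR, TXNRD1, SRXN1 and ME1.

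NFE2L2 (chr2:177218667-177392756, minus strand, GRCh38), the gene of NRF2, was measured in the WT libraries at 29.0, 30.8, 36.4 and 35.0 FPKM and in the EV libraries at 28.3, 29.0, 33.0 and 35.2 FPKM. The clone libraries ranged from 34.6 to 58.9 FPKM with a median of 39.9. Of the 24 clone libraries, 20 lay above every WT and EV library, and 22 lay above the WT library of the same replicate number. Such tallies, here and below, reuse the same unedited libraries for every clone and are not independent. How many of all genes reach them was not counted. The log2 difference of the mean of the clones was 0.31 ± 0.09 (SE; adjusted p = 0.032). This call was lost without clone C2 or C5 and without WT replicate 1, 2 or 4 (adjusted p from 0.0568 to 0.172). It was also lost in an unmoderated test (adjusted p = 0.188). C2 held the highest mean, 47.5 ± 7.68 FPKM (SD, n = 4), and C6 the lowest of the clones, 37.9 ± 1.88, and the clones did not differ among themselves past the threshold (adjusted p = 0.41). The 43 other tested genes within 5 Mb of NFE2L2 had a median log2 difference of 0.09 in the mean of the clones, and in single clones the medians ran from −0.06 in C3 to 0.17 in C5 and 0.14 in C6, against 0.31 and 0.21 for NFE2L2 in C5 and C6. The part of the neighbourhood in the NFE2L2 values was not tested.

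KEAP1 (chr19:10486125-10503558, minus strand), the negative regulator of NRF2, stood at 35.4, 26.4 and 42.2 FPKM in WT replicates 1, 2 and 4, and at 47 FPKM in replicate 3. Its clone libraries spanned 22.0 to 48.2 FPKM and overlapped WT on both sides. The log2 difference was −0.01 ± 0.16 and was not called (adjusted p = 0.98). KEAP1 was lowest in replicate 2 in 5 of the 8 HAP1 lines, where ASNS, the asparagine synthetase gene of the amino acid response, was highest in 7 of 8.

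GCLC and GCLM encode the catalytic and the modifier subunit of glutamate-cysteine ligase, the rate-limiting enzyme of glutathione synthesis. GCLC (chr6:53497341-53616970, minus strand) was at 31.2, 29.3, 23.4 and 32.4 FPKM in WT, and at 29.6, 34.3, 23.8 and 28.1 FPKM in EV. In descending order, clone C6 had a mean of 41.0 ± 1.70 FPKM (SD, n = 4), C3 of 39.6 ± 5.05, C4 of 38.7 ± 7.42, C5 of 38.3 ± 5.24, C1 of 38.2 ± 6.69 and C2 of 33.0 ± 2.78, followed by WT with 29.1 ± 4.00 and EV with 28.9 ± 4.36. Each neighbouring pair in this order differed by less than the larger of its SDs. Of the 24 clone libraries, 18 lay above all 8 unedited libraries, and all 24 lay above the WT library of the same number.

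The lowest clone libraries, at 27.7 to 30.9 FPKM, were those of replicate 3 in C1, C2, C4 and C5. Replicate 3 was the lowest library of GCLC in all 8 HAP1 lines, edited or not. Across the shared numbers the mean over lines was 29.5 ± 4.86 FPKM (SD, n = 8) for replicate 3 and 37.6 to 38.5 for the others. What distinguished the cultures of that number is not given in the sources used here.

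GCLC lies on the short arm of chromosome 6, and the values of genes near it are given as a description. In C6, the 27 other tested genes within 5 Mb had a median log2 difference from WT of 0.19, against 0.49 for GCLC and 0.02 over all genes. For the other clones the medians around GCLC ran from −0.06 to 0.06, and the difference of GCLC from 0.18 in C2 to 0.44 in C3. In C6, 4 of the 27 neighbours were called, where 11.7% of all genes were. As GCLC was chosen on its level in these clones, its standing relative to its neighbours follows from that choice.

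GCLM (chr1:93885199-93909456, minus strand) was at 8.72, 6.73, 14.3 and 10.1 FPKM in WT and ranged from 5.83 to 15.9 in the clones. The log2 difference was 0.06 ± 0.18 (adjusted p = 0.90), and 16 of 24 clone libraries lay above the WT library of the same number. The ratio of GCLC to GCLM, both per length, was 3.19 ± 1.14 (SD, n = 4) in WT, 3.47 ± 1.47 in EV and 3.93 ± 1.198 over the 24 clone libraries, with ranges that overlapped. The SD of GCLM was 3.19 FPKM within WT and 2.49 FPKM over the clone libraries.

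GSR (chr8:30678066-30727846, minus strand), glutathione reductase, which returns oxidized glutathione to its reduced form, was tightly measured in WT at 47.4, 45.2, 43.7 and 44.8 FPKM. Of the clone libraries, 21 of 24 lay below every WT library, but EV libraries reached down to 38.1, and 11 of 24 lay below all unedited libraries. The log2 difference was −0.21 ± 0.06 (adjusted p = 0.039). The call was lost against EV as the reference (−0.10, adjusted p = 0.33), without clone C1, C5 or C6 (0.0633 to 0.184) and without any 1 of the 4 WT libraries (0.0691 to 0.156). It also depended on the scaling, being lost on values rescaled to TPM (adjusted p = 0.0696) or by median ratios (adjusted p = 0.0798). GSR was the only member to differ among the 6 clones (adjusted p = 0.018), in a test that called 13.9% of 13186 genes. C5 held 33.2, 33.0, 34.1 and 33.1 FPKM and C2 held 48.2, 43.3, 46.5 and 40.1 FPKM, with no overlap. Of the single clones, only C5 was called against WT (−0.43 ± 0.09, adjusted p = 0.0151), and not without C5 replicate 1 or 4 or WT replicate 1 or 4 (adjusted p up to 0.058).

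TXNRD1 (chr12:104215779-104350307, plus strand) encodes the cytosolic thioredoxin reductase, and SRXN1 (chr20:646615-653200, minus strand) encodes sulfiredoxin, which repairs overoxidized peroxiredoxins. TXNRD1 was at 111.3, 79.5, 104.5 and 102.0 FPKM in WT and 74.5 to 104.9 in the clones, with a log2 difference of −0.11 ± 0.09 (adjusted p = 0.58). SRXN1 was at 35.3, 29.8, 38.6 and 37.2 FPKM in WT and 25.5 to 39.0 in the clones, with a difference of −0.17 ± 0.08 (adjusted p = 0.23). Of the 24 clone libraries, 21 for TXNRD1 and 19 for SRXN1 lay below the WT library of the same number. Neither difference passed the test, and no clone was called for either gene.

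NQO1 (chr16:69706996-69726668, minus strand), a quinone reductase and a commonly used readout of NRF2 activity, showed the lowest clone levels relative to WT of the 10 genes. WT held 89.3, 58.9, 69.2 and 46.2 FPKM, and EV held 69.0, 93.0, 53.2 and 48.0 FPKM. The clone libraries ranged from 9.70 to 52.1 FPKM with a median of 30.0, and 23 of 24 lay below all 8 unedited libraries. The exception was C3 replicate 1, and all 24 lay below the WT library of the same number. The log2 difference was −1.14 ± 0.24 (adjusted p = 0.0030), a 0.454-fold level on the scale of FPKM + 1, and of the alternatives run only the unmoderated test ended its call.

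Clone C1 had the lowest mean of NQO1, 22.2 ± 9.19 FPKM (SD, n = 4), and C3 the highest, 38.3 ± 12.4, with 28.5 to 32.3 for the others. It was called in C5 (−1.09 ± 0.24, adjusted p = 0.025) and C6 (−1.18 ± 0.23, adjusted p = 0.010). It missed the threshold in C1 (−1.60 ± 0.32, adjusted p = 0.0673), C2 (0.11), C3 (0.749) and C4 (0.146). Since deviations of same-numbered libraries went together in C1 to C4, a fit with the replicate block bears on these clones. With it NQO1 was also called in C1 (adjusted p = 0.027) and C4 (adjusted p = 0.0105), but not in C2 (0.0582) or C3 (0.0898). That fit called 197 of 13160 genes in C1 and 319 of 13125 in C4. The clones did not differ from each other in NQO1 past the threshold (adjusted p = 0.55), so that calls in some clones alone do not show a difference between clones. The call in C5 was lost without C5 replicate 3 or 4 or WT replicate 1 or 3 (adjusted p from 0.0517 to 0.0836).

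HMOX1 (chr22:35380361-35394214, plus strand) encodes heme oxygenase 1, which degrades heme and is induced by oxidants and heme. WT held 12.3, 10.99, 15.9 and 13.5 FPKM, and EV held 11.6, 12.4, 9.67 and 10.2 FPKM. The clone libraries ranged from 4.48 to 11.2 FPKM with a median of 7.36, and 23 of 24 lay below every WT library, C3 replicate 4 being the exception, and 22 lay below all 8 unedited libraries. Again, all 24 lay below the WT library of the same number. The log2 difference was −0.74 ± 0.12 (adjusted p = 0.00017).

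HMOX1 was called in C2 (−1.04 ± 0.18, adjusted p = 0.027), C5 (−0.67 ± 0.14, adjusted p = 0.020) and C6 (−0.69 ± 0.15, adjusted p = 0.015). With the replicate block it was also called in C4 (adjusted p = 0.037), where that fit called 319 of 13125 genes. It was not called with the block in C1 (adjusted p = 0.0749) or C3 (0.198). The C2 call was lost without C2 replicate 3 or 4 or WT replicate 1, 3 or 4 (adjusted p from 0.0647 to 0.115), the C5 call without C5 replicate 3 or 4 or WT replicate 4 (0.0548 to 0.0641), and the C6 call without C6 replicate 1 (0.0522). Genes within 5 Mb of HMOX1 on chromosome 22 had median log2 differences of −0.25 in C2, −0.30 in C5 and −0.02 in C6, and −0.16 in the mean of the clones. HMOX1 lay below its neighbourhood in each of the 6 clones. The part of the neighbourhood in the HMOX1 values was not tested. For NQO1, the same medians ran from −0.15 in C2 to 0.02 in C5.

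ME1 (chr6:83210402-83431051, minus strand), the cytosolic malic enzyme that makes NADPH, was at 27.4, 27.4, 40.4 and 31.5 FPKM in WT, 20.9, 23.9, 37.0 and 24.8 in EV, and 19.2 to 35.4 in the clones. The log2 difference from WT was −0.24 ± 0.11 (adjusted p = 0.225), and from EV it was 0.01. EV itself averaged 26.7 ± 7.11 FPKM (SD, n = 4), and the 24 clone libraries averaged 26.5 ± 4.06. The lowest clone was C6 at 22.2 ± 2.05 FPKM (adjusted p = 0.0561, and 0.0364 without WT replicate 2).

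**Figure D2:**
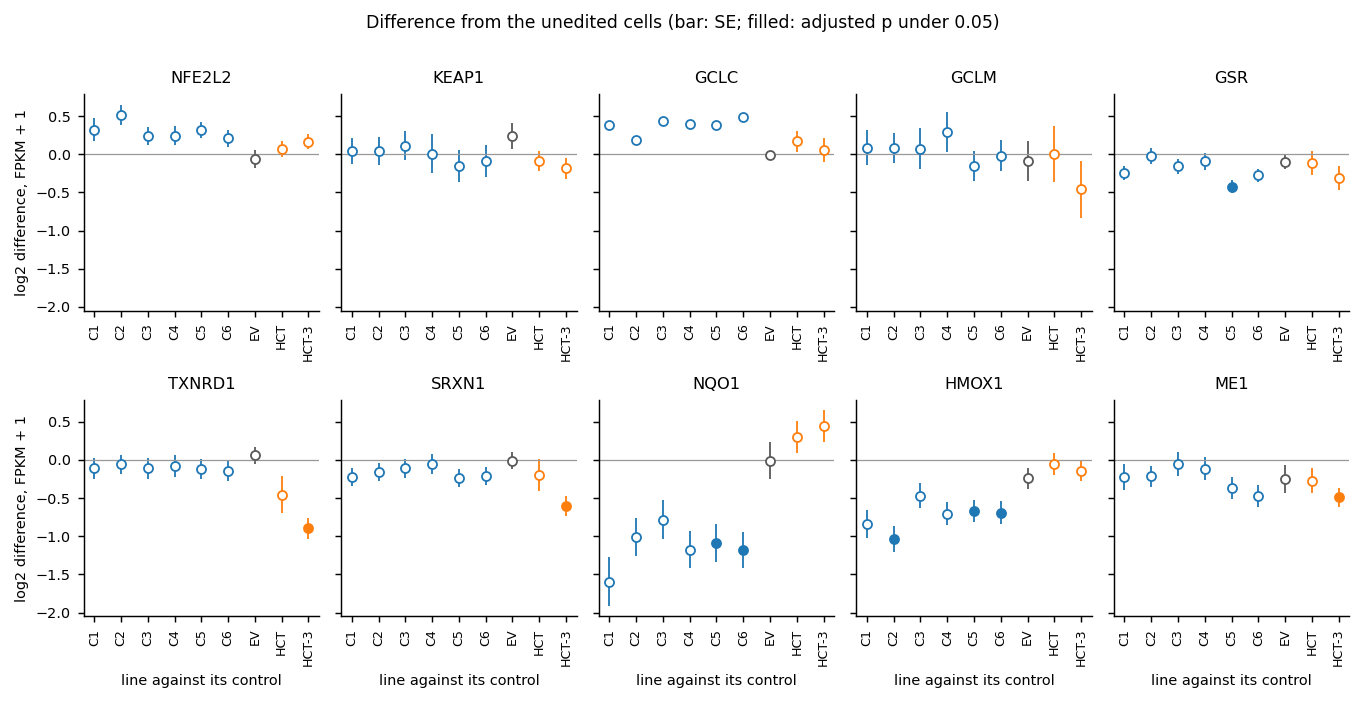
Difference in mean log2(FPKM + 1) from unedited cells (vertical axes) for the 10 genes in each HAP1 clone and EV against WT, and in the HCT116 clone against controls with all libraries (HCT) or without those numbered 3 (HCT-3), with bars for 1 SE and filled points for an adjusted p under 0.05. GCLC has no error bar in HAP1 because it was chosen on these values. NQO1 and HMOX1 lie below 0 in all 6 clones, with called points in C5 and C6 for both and in C2 for HMOX1.

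None of the 9 members was called in C1 (0.479% of genes called), C3 (0.0911%) or C4 (0.16%), although 4, 2 and 2 of them, respectively, had an unadjusted p under 0.05. With the replicate block, which fits the pairing found in C1 to C4 and EV, NQO1 was called in C1 (adjusted p = 0.0273) and both NQO1 (0.0105) and HMOX1 (0.0372) in C4. The block also raised the calls over all genes, to 197 of 13160 in C1 and 319 of 13125 in C4. Without the block, 1 member was called in C2 (0.732% of genes), 3 in C5 (7.55%) and 2 in C6 (11.7%), each of them lower than WT. In EV no member was called against WT, where 0.038% of genes were called in all, and none had an unadjusted p under 0.05. With the replicate block no member was called in EV either, but ME1 (adjusted p = 0.767) and KEAP1 (adjusted p = 0.845) had an unadjusted p under 0.05.

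**Figure D3:**
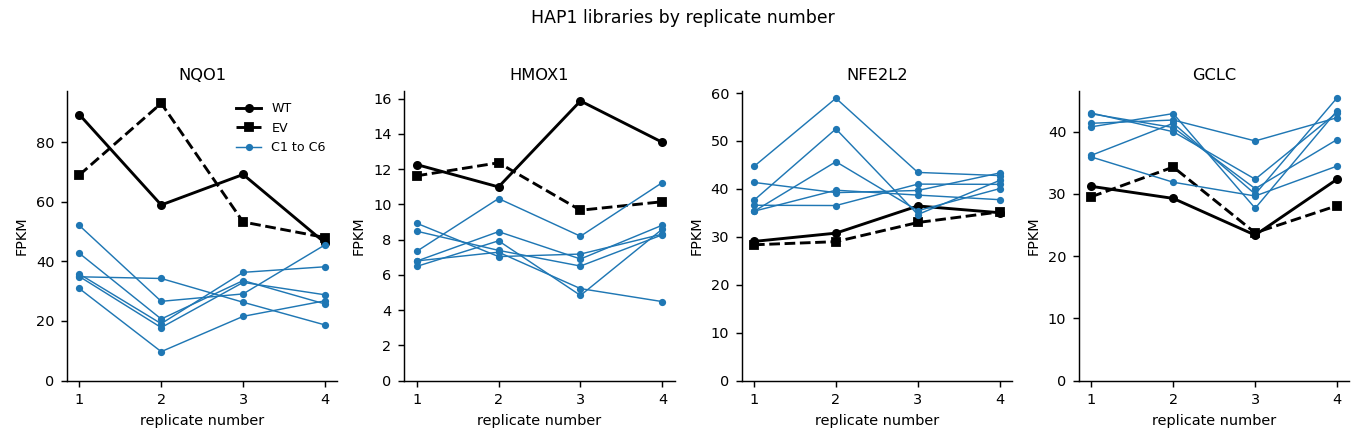
FPKM (vertical axes, from 0) of NQO1, HMOX1, NFE2L2 and GCLC in the HAP1 libraries by replicate number (horizontal axes), with WT and EV in black and the 6 clones in blue; lines join the libraries of a line and imply no order in time. All clone values of NQO1 and HMOX1 lie below the WT value of the same number, all of GCLC lie above it, and GCLC dips at replicate 3 in every line.

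The members did not vary as a block within lines. Over the 32 HAP1 libraries, with each line's mean removed, KEAP1 varied with GCLM (Pearson r = 0.76, Spearman rho = 0.77), TXNRD1 (0.75, 0.51) and SRXN1 (0.74, 0.68), while NFE2L2 varied against NQO1 (−0.66, −0.58). ASNS, whose level marks a difference between replicate numbers, ran against KEAP1 (−0.82, −0.79), GCLM (−0.77, −0.78) and TXNRD1 (−0.66, −0.54) and less so against NQO1 (−0.47, −0.31). GSR, HMOX1 and GCLC were not in that set, with r from −0.09 to 0.39 with ASNS. These are descriptions over libraries that share lines and replicate numbers, and the part of what the numbers stand for was not tested.

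The genes most like GCLC over the 32 HAP1 libraries, by Pearson r of log2(FPKM + 1) among 13179 others, were FEZ1 (r = 0.86), RP11-384P7.7 (0.85), KCNG3 (0.81), MSI2 (0.81) and PNPLA8 (0.81). The libraries share line, replicate number and depth, so the values rank likeness only. As GCLC was chosen on its higher level in the clones, genes higher in the clones rank near it, and lower ones far from it, by that choice. Of the other 9 members, only NFE2L2 had an r above 0 (0.36, rank 1954), and SRXN1 had the lowest (−0.60). Over the means of the 8 lines RP11-384P7.7 came first (0.98), FEZ1 fell to rank 286, and TXNRD1 and NQO1 ranked among the last with r of −0.95 and −0.83. With each line's mean removed, r with GCLC was 0.12 for NFE2L2, 0.04 for NQO1, −0.25 for TXNRD1 and −0.53 for SRXN1.

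Other genes of the pathway were read from lists chosen for their function. In the mean of the HAP1 clones none of 13 genes of NRF2 control, 10 of the thioredoxin system, 7 of iron and heme handling or 15 tested genes of the ATF4 amino acid response was called. Among 25 tested genes of glutathione supply and use, 2 fell, where 3.43% of all genes fell and 3.17% rose: GPX7, an endoplasmic reticulum peroxidase, from 27.9 ± 3.96 FPKM (SD, n = 4) in WT to 22.5 ± 2.78 (n = 24), and GSTP1, a glutathione transferase, from 891.6 ± 131.0 to 731.5 ± 159.6. Their log2 differences were −0.30 ± 0.08 (adjusted p = 0.017) and −0.31 ± 0.10 (adjusted p = 0.04998). GSTP1 averaged 597.0 FPKM in C5 and 518.0 in C6, against 756.9 in C1, 856.0 in C2, 903.3 in C3 and 757.7 in C4. Its call was lost without C5 (adjusted p = 0.166) or C6 (0.254) and on scaling by median ratios (0.0531). The call of GPX7 was lost without C6 (adjusted p = 0.0926).

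Of 12 tested detoxification genes, 2 fell against the same 3.43% of all genes: UGDH, which makes the substrate of glucuronidation, from 22.2 ± 0.723 to 18.2 ± 1.87 FPKM (−0.28 ± 0.07, adjusted p = 0.020), and AKR1B1, an aldose reductase, from 120.3 ± 13.2 to 100.9 ± 8.37 FPKM (−0.25 ± 0.07, adjusted p = 0.036). Each of the 4 calls was lost when WT replicate 1 or 4 was left out (adjusted p from 0.0658 to 0.223). The call of AKR1B1 was also lost without C3, C5 or C6 (adjusted p from 0.0537 to 0.0772). List medians lay between −0.22 for detoxification and −0.03 for glutathione, against −0.02 over all genes.

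In HCT116 the question was whether the same genes stood apart in an independent line. With all 15 libraries, none of the 10 members was called between the clone and the controls, and 0% of 12960 genes were in limma, although 1342 genes had an unadjusted p under 0.05 and the unmoderated test called 17. No member had an unadjusted p under 0.05. Without the libraries numbered 3, 3 of the 10 members fell and none rose, where 3.62% of 13000 genes rose and 2.29% fell. These were TXNRD1, SRXN1 and ME1, none of which passed the test in HAP1.

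TXNRD1 was at 92.1, 87.5 and 80.7 FPKM in clone replicates 1, 2 and 4, and at 229.4 in the library labelled clone replicate 3. The 9 controls not numbered 3 ranged from 134.2 to 206.7 FPKM with a median of 154.2, and the library labelled EV2 replicate 3 held 82.6. Without number 3 the groups did not overlap, and the log2 difference was −0.90 ± 0.14 (adjusted p = 0.0037), against −0.46 ± 0.24 (adjusted p = 0.525) with all libraries. Leaving out the library labelled clone replicate 3 alone gave −0.81 (adjusted p = 0.033).

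SRXN1 was at 46.4, 47.5 and 38.2 FPKM in clone replicates 1, 2 and 4 and 120.7 in the library labelled replicate 3, against 54.7 to 85.6 in the 9 controls, with a median of 65.8. The log2 difference without number 3 was −0.60 ± 0.14 (adjusted p = 0.020), and with all libraries −0.20 ± 0.21 (adjusted p = 0.77). Without the library labelled clone replicate 3 alone it was −0.56 (adjusted p = 0.034). ME1 was at 23.5, 21.9 and 23.2 FPKM against 26.0 to 40.3, with the library labelled clone replicate 3 at 42.1, the highest value of ME1 in HCT116. Its difference without number 3 was −0.49 ± 0.12 (adjusted p = 0.033), and with all libraries −0.27 ± 0.16 (adjusted p = 0.56). Without the library labelled clone replicate 3 alone it was −0.49 and not called (adjusted p = 0.057).

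**Figure D4:**
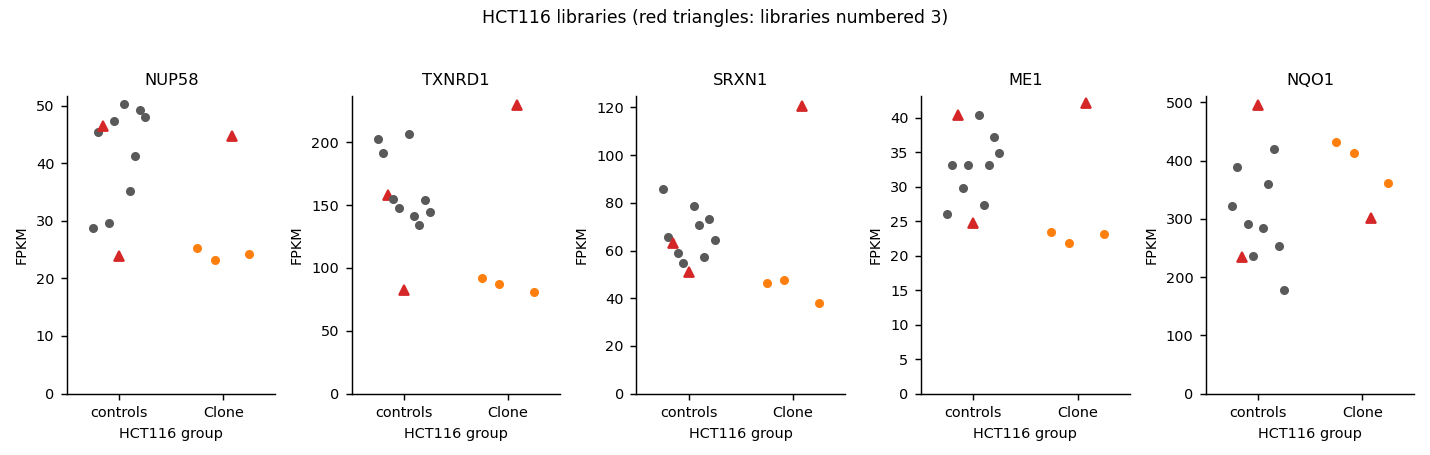
FPKM (vertical axes, from 0) of *NUP58*, TXNRD1, SRXN1, ME1 and NQO1 in the HCT116 libraries, with the 11 controls on the left and the 4 libraries of the clone on the right of each panel; red triangles mark the libraries numbered 3. The library labelled clone replicate 3 lies highest in the clone for *NUP58*, TXNRD1, SRXN1 and ME1 and lowest for NQO1, and without it the clone lies below the controls not numbered 3 for TXNRD1, SRXN1 and ME1.

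NQO1 and HMOX1 gave different values in HCT116 than in HAP1. NQO1 was at 431.7, 413.2 and 362.4 FPKM in clone replicates 1, 2 and 4 and 302.0 in the library labelled replicate 3, against 177.7 to 495.1 in the 11 controls, which averaged 315.1 ± 93.7 (SD). The log2 difference was 0.30 ± 0.21 (adjusted p = 0.62), and 0.44 ± 0.21 (adjusted p = 0.22) without number 3. HMOX1 was at 16.4, 16.8, 21.5 and 10.9 FPKM in the clone and 13.7 to 22.5 in the controls, with a difference of −0.06 ± 0.14 (adjusted p = 0.91). The highest control values of both genes were those of the library labelled EV2 replicate 3, whose label is in doubt. Without number 3 the controls held 177.7 to 420.6 FPKM for NQO1 and 13.7 to 19.4 FPKM for HMOX1. The groups overlapped for both genes with and without number 3.

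The clone effect in HAP1 minus that in HCT116 was tested in 1 model for each gene. It was −1.44 ± 0.34 for NQO1 (adjusted p = 0.014) and −0.68 ± 0.18 for HMOX1 (adjusted p = 0.042), so that 2 of 9 members were called, both lower in HAP1, where 0.77% of 13629 genes were called higher and 1.03% lower. For TXNRD1 it was 0.35 ± 0.24 (adjusted p = 0.56), and 0.79 ± 0.16 (adjusted p = 0.0013) without the HCT116 libraries numbered 3. The 1 HCT116 clone cannot be told apart from its cell line in this contrast.

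The remaining members did not pass the test in HCT116 with or without number 3. GCLC, tested here because its choice rested on HAP1, was at 30.5, 29.3 and 27.0 FPKM in clone replicates 1, 2 and 4, and 36.3 in the library labelled replicate 3, against 20.8 to 36.1 in the controls. Its log2 difference was 0.17 ± 0.14 (adjusted p = 0.685), and 0.06 ± 0.16 (adjusted p = 0.86) without number 3. NFE2L2 gave 0.07 ± 0.10 (adjusted p = 0.84) and KEAP1 −0.09 ± 0.13 (adjusted p = 0.84). GSR was at 58.8, 60.1 and 59.6 FPKM in clone replicates 1, 2 and 4 and 99.1 in the library labelled replicate 3, against 55.7 to 95.2 (−0.11 ± 0.16, adjusted p = 0.83). GCLM was at 16.2, 13.5 and 12.1 FPKM and 44.7 in the library labelled replicate 3, against 7.96 to 40.6, and its difference turned from 0.00 ± 0.36 (adjusted p = 0.998) to −0.46 ± 0.37 (adjusted p = 0.48) without number 3.

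Several members varied with *NUP58* and with each other across the HCT116 libraries. With the means of clone and controls removed, over 15 libraries, *NUP58* varied with ME1 (r = 0.92, rho = 0.90), GSR (0.84, 0.83) and GCLM (0.77, 0.83), and GCLM varied with GSR (0.91, 0.93) and TXNRD1 with SRXN1 (0.89, 0.86). The points share lines and include the libraries of doubtful label, which lie at the extremes, so these values are a description of the set. In the controls numbered 1, *NUP58* stood at 28.7, 29.7 and 35.2 FPKM and GCLM at 11.2, 7.96 and 12.8 FPKM, below the controls of replicate 2, where GCLM was at 22.0, 21.2 and 20.4 FPKM.

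Beyond the members, the HCT116 lists gave calls in both directions once the libraries numbered 3 were left out, and none with all libraries. Without number 3, 3.62% of all 13000 genes tested rose and 2.29% fell, so a single call in a list of this size is near that share. In glutathione supply and use, 2 of 23 tested genes rose and 2 fell, namely GGT1, which fell, and the 3 with the smallest p: GPX1, a glutathione peroxidase, from 229.9 ± 23.2 FPKM (SD, n = 9) to 328.8 ± 8.02 (n = 3; 0.52 ± 0.11, adjusted p = 0.014), GLRX, a glutaredoxin, from 26.0 ± 5.97 to 42.8 ± 7.53 FPKM, and GGCT, which degrades gamma-glutamyl peptides, from 53.7 ± 6.12 to 38.3 ± 3.31 FPKM. In the thioredoxin system, 1 of 9 tested genes rose and 1 fell. PRDX2, a peroxiredoxin, stood at 401.4 ± 20.9 against 289.7 ± 37.1 FPKM in controls (0.48 ± 0.12, adjusted p = 0.031), and TXN2, mitochondrial thioredoxin, at 51.7 ± 3.96 against 67.0 ± 5.44 FPKM (−0.37 ± 0.10, adjusted p = 0.040).

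Of 12 detoxification genes, CYP4F11, a cytochrome P450, fell from 6.14 ± 1.68 to 1.43 ± 0.116 FPKM (−1.52 ± 0.20, adjusted p = 0.0023), and EPHX1, an epoxide hydrolase, rose from 33.6 ± 6.01 to 51.2 ± 2.49 FPKM (0.61 ± 0.15, adjusted p = 0.027). Among 8 genes of NADPH supply MTHFD2 fell, and among 14 of the ATF4 response SHMT2 fell (−0.71 ± 0.12, adjusted p = 0.0050); both belong to mitochondrial serine and folate metabolism. No gene of NRF2 control or of iron and heme handling was called. The shares over all genes were again 3.62% higher and 2.29% lower.

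Finally, the levels in unedited cells of the 2 lines were compared, 8 HAP1 libraries against 11 HCT116 controls. Of 9 members, 7 were lower in HAP1 and none higher, where 28.5% of 13538 genes were lower and 39.5% higher, and the median over all genes was 0.10 on the log2 scale. NQO1 averaged 65.8 ± 17.8 FPKM (SD, n = 8) in HAP1 and 315.1 ± 93.7 (n = 11) in HCT116 (−2.23 ± 0.17, adjusted p = 1.6e-10), and NFE2L2 32.1 ± 3.22 and 68.3 ± 7.89 FPKM (−1.06 ± 0.08, adjusted p = 3.0e-11), without overlap of libraries. GCLM, SRXN1, GSR, TXNRD1 and HMOX1 were lower by 0.45 to 0.93 on the log2 scale. KEAP1 (−0.03, adjusted p = 0.85) and ME1 (−0.17, adjusted p = 0.205) were not called, and GCLC averaged 29.0 ± 3.87 FPKM in HAP1 and 27.5 ± 5.14 in HCT116. Scaling by median ratios moved the median of all genes to 0.00, and the 7 members stayed lower, with ME1 called as well (−0.28, adjusted p = 0.0365).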

How the data were processed

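The authors aligned adaptor-trimmed reads with STAR to GRCh38.p13, quantified genes with RSEM, and deposited a table of FPKM without further normalization between libraries; versions of these tools are not given in the sources used here. Counts were not analysed here, so depth is known only as a ratio between libraries and no counting interval is given. All 47 columns were matched to samples through their labels.

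The 10 genes and the pathway lists were chosen with earlier results of these data known. Differences were tested with limma 3.58.1 (R 4.3.3; empirical Bayes with a mean-variance trend) on log2(FPKM + 1), a scale that understates changes of low genes. Each fit kept genes whose FPKM averaged 1 or more, p-values were adjusted by Benjamini-Hochberg over all genes tested, and genes were called under 0.05. The fit was tested on simulated data. The named genes were the 10 members, *NUP58*, ASNS, in each list and comparison up to 3 called genes with the smallest p, and the 5 genes most like GCLC. Coordinates are GENCODE v44 gene models (GRCh38), matched by Ensembl identifier, and promoter windows are from RefSeq. The NADPH supply list is not reported here for HAP1.

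Replicates are the libraries the labels number, described as independent experiments for HAP1 and as biological in one place and technical in another for HCT116, where p-values may then measure technical spread. Deviations from WT of the same number correlated above 0.1 in 24 of 28 pairs of HAP1 libraries. They did so in all 4 pairs of C1, C2, C3, C4 and EV and of the mean of the clones (0.36 to 0.72). For C2 replicates 1 and 4 and EV replicate 2, however, a WT library of another number correlated more. In HCT116, 1 of 4 numbers correlated above 0.1. The main fits, and those without single clones or libraries, did not use this pairing. A separate fit with the replicate block did, and called 1659 genes in the mean of the clones in place of 870. No 2 libraries held identical values.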

Additional observations from a re-analysis of the deposited data

Results flagged for a closer look

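Of 100 groups of 4 libraries examined, 1 for each gene and line, 12 held a library farther from the others than Dixon's test allows at the 5% level, which chance would do in about 1 in 20 groups. In HCT116 these were the highest libraries of the clone for GCLM (44.7 FPKM), GSR (99.1), TXNRD1 (229.4), SRXN1 (120.7) and ME1 (42.1), each of them the library labelled replicate 3 that also holds *NUP58* at the level of the controls. In HAP1 the libraries were the highest of C2 for NFE2L2 (58.9 FPKM), of C1 (32.6) and EV (39.1) for SRXN1, and the lowest of C4 for GCLC (27.7) and TXNRD1 (76.6), of C2 for NQO1 (19.1) and of C6 for ME1 (19.2).

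The clone effect differed between the cell lines in the test of the difference for HMOX1 (−0.68 on the log2 scale, HAP1 minus HCT116) and NQO1 (−1.44), as described above. In HAP1, NQO1 was lower than WT of the same number in 24 of 24 clone libraries, and HMOX1 in 24 of 24. All clones were set against the same WT libraries, so these comparisons are not independent. How many of all genes reach such a tally was not counted.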

How the results depend on the processing

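In the mean of the 6 HAP1 clones, 4 members were called, and 1, NQO1, with the study's volcano thresholds (p under 0.01 and a 2-fold change). The unmoderated test also called 1, GSR. In it NFE2L2 (adjusted p = 0.188), NQO1 (adjusted p = 0.084) and HMOX1 (adjusted p = 0.0505) missed the threshold. The unmoderated test set the 24 clone libraries as 1 group against the 4 WT libraries. Its error therefore also holds the spread between clones, and it counts libraries of the same clone as separate replicates. The count was 2 without clone C5 and 2 to 3 without single WT libraries. Over single clones the 6 calls became 3 with the unmoderated test, 12 with all HAP1 libraries in 1 fit, and 3 to 7 without single libraries. In HCT116 the count of 0 became 3 without all libraries numbered 3, 3 without the clone and EV2 libraries numbered 3 (chosen after seeing the data), and 0 to 2 without single libraries. The count of 2 members whose effect differs between the cell lines became 1 with a pseudocount of 0.1 and 1 with no filter on low FPKM, through HMOX1. Without the HCT116 libraries numbered 3 this count was 3, with TXNRD1. The counts for EV against WT, among the clones and between the unedited lines stayed within 1.5 times under every alternative run.

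No called member turned its direction. With EV as the reference, uncalled differences changed sign for ME1 (0.0106 in the mean of the clones, and 0.0269, 0.037, 0.20 and 0.14 in C1 to C4), KEAP1 (−0.20, −0.20 and −0.13 in C1 to C3) and GSR (0.0763 in C2). Without HCT116 clone replicate 3, all libraries numbered 3, or the clone and EV2 libraries numbered 3, GCLM changed to −0.40, −0.46 and −0.41. HMOX1 in HCT116 changed to 0.11 without clone replicate 4, and GSR between cell lines to 0.11 without HCT116 libraries numbered 3. The replicate block made calls of NQO1 in C1 and C4 and of HMOX1 in C4, with 9 calls over single clones in place of 6. Calls over all genes rose with it from 63 to 197 in C1 and from 21 to 319 in C4, and fell from 1561 to 1312 in C6. The block changed no other call of a member in the comparisons within HAP1, within HCT116 or of their clone effects. Between the unedited lines each block lies within a single cell line, so the block cannot be separated from the difference between lines. The block values of that comparison are therefore not read. Depth limits are known only as ratios between libraries.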
